A study of Mus musculus with 12 samples.

Results

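The genes described here are named for proteins of the mitochondrial ribosome. They were chosen by name, as every row of the deposited table whose symbol begins with Mrpl or Mrps followed by a digit. There were 76 of them among 11022 genes. By name 49 were assigned to the large subunit (the Mrpl genes with Mrps30 and Mrps18a) and the other 27 to the small subunit. Whether each product is part of the particle was not checked. The mRNA came from cytotoxic T lymphocytes (CTL) of mice that carry the transgenic P14 T cell receptor (TCR), which recognises the gp33-41 peptide of a viral glycoprotein. T cells from lymph nodes or spleens of 3 female mice were activated for 48 h with gp33-41, interleukin 2 (IL-2) and interleukin 12. They were expanded in IL-2 to day 7, and were then rested for 1 h. All 12 samples were CTL kept in IL-2 at 20 ng/mL, and they fall into 4 groups of 3. Unstimulated CTL received no peptide, and TCR denotes CTL that received gp33-41 at 100 ng/mL for 4 h. TCR+PI3Kdi denotes peptide for 4 h together with 10 µM IC87114, which blocks the p110δ form of the lipid kinase PI3K, and TCR+MEKi denotes peptide for 4 h together with 2 µM PD184252, which blocks the kinases MEK1/2. Per the study's methods DMSO served as the vehicle control. All T cells share 1 transgenic receptor, which limits the model to a single antigen specificity.

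Mitochondria hold their own ribosome, which translates the few messages of the mitochondrial genome into core subunits of the respiratory chain and of ATP synthase. Its RNAs are made inside the organelle, whereas all its proteins are encoded in the nucleus, made in the cytosol and imported, so that their mRNA is measured with that of other nuclear genes. Many of these proteins have a counterpart in the bacterial ribosome and the others are found only in mitochondrial ribosomes. In T cells, mitochondrial translation is known for supporting respiration as the cells are activated and proliferate.

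The table gives FPKM, a read level per length of exon and per size of the library, so that levels can be compared between genes as well as between samples. The approximate effective depth lay between 7800000 and 13200000 reads per sample, and replicates of a group correlated with r from 0.9925 to 0.9946 across genes, which are not independent replicates. All 7 CTL markers listed for a check of the cell type had rows in the table, with Cd8a between 213 and 430.3 FPKM and Gzmb (granzyme B) between 8279 and 13582 FPKM. Of the other lists, 0 of 4 B cell markers, 0 of 4 erythroid markers, 1 of 5 myeloid markers, 2 of 3 CD4 T cell markers and 2 of 3 NK cell markers had rows. Cd4 did not exceed 3.65 FPKM in any sample, and Cd68 did not exceed 8.44. Cd40lg, from the CD4 list, reached 113 FPKM, and Cd4, Cd40lg and Eomes were higher and Klrb1c (up to 6.23 FPKM) lower with TCR than in unstimulated samples. The part of other cells in the results below was not tested. The sum of FPKM over all genes differed between groups, from between 470420 and 495945 in unstimulated samples to between 620715 and 666922 with TCR, and was 549897 to 585849 with TCR+PI3Kdi and 524343 to 539350 with TCR+MEKi. Because of this, the direction of small changes depends on how samples are scaled, and changes are also given relative to the median of all genes.

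The start regions of 7 members are shown first. Mrpl9, Mrpl32 and Mrpl39 were picked because they hold the NRF1 motif described below. They are also among the 22 members that were higher with TCR and lower with TCR+MEKi than with TCR, and none of the other members of that group with a RefSeq window holds it. Mrpl33 and Mrps22 hold the ETS core and were picked because they were called lower with TCR+MEKi than with TCR+PI3Kdi. The other holders of that core were not called in that comparison. A link between a motif and a response was not tested. Mrps6 is shown because it rose most with TCR and Mrpl14 because it fell most. Each line runs 5′ to 3′ on the strand of the gene, from 140 bases before to 10 bases after 1 RefSeq start, which for Mrpl9 and Mrpl14 lies inside the full span of the gene. Sequences and all coordinates are from RefSeq on GRCm38.p6, and capitals mark a match to one of 4 motifs.
Mrpl9 (chr3:94443196-94443345, plus strand): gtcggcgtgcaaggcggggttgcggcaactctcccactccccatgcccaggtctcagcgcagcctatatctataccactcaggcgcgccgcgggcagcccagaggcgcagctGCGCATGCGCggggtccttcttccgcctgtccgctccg
Mrpl32 (chr13:14613028-14613177, minus strand): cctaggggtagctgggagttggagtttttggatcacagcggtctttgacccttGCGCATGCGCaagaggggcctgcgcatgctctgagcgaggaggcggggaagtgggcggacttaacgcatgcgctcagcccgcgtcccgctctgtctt
Mrpl39 (chr16:84735235-84735384, minus strand): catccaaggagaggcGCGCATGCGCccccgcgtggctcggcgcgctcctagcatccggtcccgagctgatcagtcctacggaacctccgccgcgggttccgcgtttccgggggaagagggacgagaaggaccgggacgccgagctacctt
Mrpl33 (chr5:31613811-31613960, plus strand): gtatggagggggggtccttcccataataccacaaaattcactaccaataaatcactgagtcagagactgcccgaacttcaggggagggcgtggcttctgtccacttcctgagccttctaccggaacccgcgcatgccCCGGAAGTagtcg
Mrps22 (chr9:98601670-98601819, minus strand): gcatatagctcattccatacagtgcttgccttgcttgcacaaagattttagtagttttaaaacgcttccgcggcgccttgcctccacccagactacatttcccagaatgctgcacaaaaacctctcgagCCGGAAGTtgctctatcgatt
Mrps6 (chr16:92058196-92058345, plus strand): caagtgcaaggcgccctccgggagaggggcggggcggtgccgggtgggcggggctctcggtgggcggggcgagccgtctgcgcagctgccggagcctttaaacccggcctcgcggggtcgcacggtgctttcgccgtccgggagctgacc
Mrpl14 (chr17:45686209-45686358, plus strand): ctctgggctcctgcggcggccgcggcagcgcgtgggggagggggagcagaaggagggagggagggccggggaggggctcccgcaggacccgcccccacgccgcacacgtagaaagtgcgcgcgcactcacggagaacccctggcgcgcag

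The motifs searched on both strands, without regard to overlap, were the NRF1 palindrome (bound by nuclear respiratory factor NRF1, in capitals in the lines of Mrpl9, Mrpl32 and Mrpl39), CCGGAAGT (the core bound by ETS factors such as GABP), the YY1 word and CACGTG (an E-box, bound by factors such as MYC). RefSeq gave a window from 250 bases before to 50 after the start for 67 of the 76 members. The NRF1 motif was found in 3 of these 67 windows (4.48%), which are those of Mrpl9, Mrpl32 and Mrpl39, against 2.5% of 8332 genes of the table with a window and 1.07% of all 27025 genes. The ETS core was found in 12 windows (17.9%, against 10.0% and 4.31%), and the YY1 motif in 5 (7.46%, against 1.97% and 0.755%). The E-box was found in 5 windows (7.46%, against 12.2% and 8.09%). The stretches of Mrps6 and Mrpl14 held none of the 4 words. A match describes letters only, and no binding was measured.

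How much mRNA do CTL hold for each protein of the mitochondrial ribosome? All 76 members had a mean of at least 1 FPKM, and none was at 0 in any sample. Their mean levels spanned 33-fold, from 4.56 FPKM for Mrps25 to 151 FPKM for Mrpl33, with a median of 34.3 FPKM. The median of all genes was 10.9 FPKM, and 72 of the 76 members lay above it. The 5 highest were Mrpl33, Mrpl20, Mrpl12, Mrps16 and Mrpl52, and the 5 lowest were Mrps25, Mrpl1, Mrpl17, Mrpl41 and Mrpl35. The large and small subunits had medians of 34.4 and 33.2 FPKM. Among families that the members work beside, the cytosolic ribosomal protein genes (79 genes) had a median of 1398 FPKM and the nuclear genes of the respiratory chain and ATP synthase (72 genes) one of 119 FPKM.

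**Figure D1:**
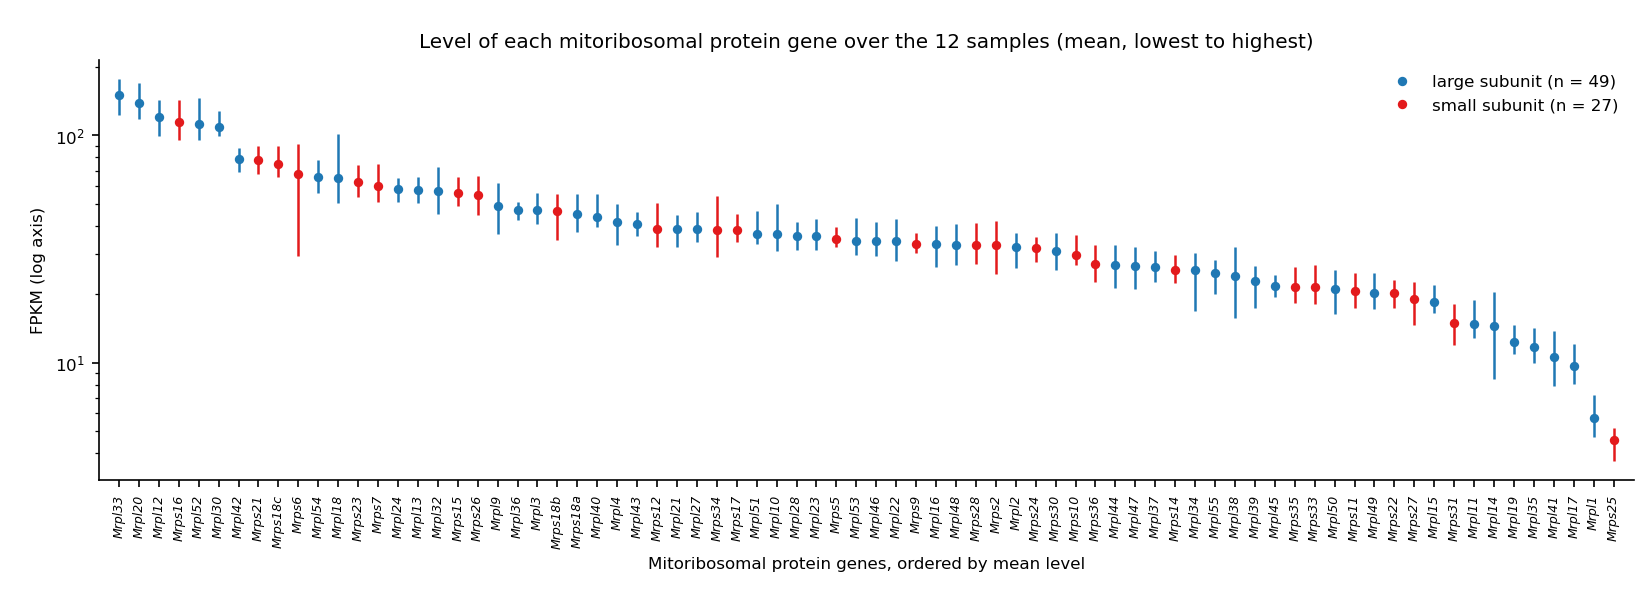
Level of each of the 76 mitoribosomal protein genes in FPKM, on a log axis, with the genes ordered by mean. Points are means over the 12 samples and lines run from the lowest to the highest sample, with the large subunit in blue and the small subunit in red; both subunits run through the whole range, and Mrps6 has the longest line, from 29.6 to 92.0 FPKM.

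The highest member, Mrpl33 (chromosome 5, 31613951 to 31622644), was at 122, 131 and 173 FPKM in unstimulated CTL, 174, 169 and 153 with TCR, 177, 162 and 149 with TCR+PI3Kdi and 136, 124 and 137 with TCR+MEKi. Its 12 values overlapped between all groups except that all 3 TCR+MEKi samples lay below those with TCR or TCR+PI3Kdi. The lowest member, Mrps25, was at 3.7, 3.89 and 4.57 FPKM in unstimulated CTL, 5.17, 5.13 and 4.91 with TCR, 4.43, 4.48 and 4.11 with TCR+PI3Kdi and 4.77, 4.5 and 5.09 with TCR+MEKi, and its exons overlap those of Nr2c2 on the other strand over 69.8% of their length. Replicates varied with a median coefficient of variation of 6.49% over the members, against 7.39% over all genes. Read numbers were estimated from the approximate depth and GENCODE exon lengths. By this estimate each member had at least 59 reads in every sample and a median of 787, and 2 members fell under 100 reads in a sample. The FPKM rest on the exon lengths of the authors, which may differ, so the true read numbers may be lower or higher.

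The first comparison asked what antigen does to these mRNA within 4 h. With TCR, 32 of the 76 members rose and 12 fell (limma on log2(FPKM + 0.1), Benjamini-Hochberg adjusted p under 0.05), where 33.6% of all 11022 genes were called higher and 34.9% lower. As shares of the members these were 42.1% and 15.8%. The median log2 change of the members was 0.17, against -0.01 over all genes, and 56 of 76 lay above the all-gene median. Changes were small, since 66 members stayed within 0.5 on the log2 scale, where 55.4% of all genes did, and 1 member, Mrps6, passed 2-fold (8.87% of all genes were called and over 2-fold higher, and 11.1% lower). The deposited values were scaled by TMM. When each sample was rescaled to a common sum of FPKM (the TPM scale), the median of all genes moved to -0.41 and that of the members to -0.25, and the calls turned to 3 higher and 44 lower. These are 3.95% and 57.9% of the members, where 15.3% and 60.9% of all genes were called, so that the share of falls was near that of all genes. Quantile normalisation gave 27 higher and 16 lower, or 35.5% and 21.1%, against 31.3% and 37.0% of all genes. Set against the all-gene median, the members' median was 0.18 as deposited, 0.17 under TPM scaling and 0.12 when quantiles were equalised. Of the 32 members that rose, 15 stayed above 0 under TPM scaling and 31 with quantile normalisation, while all 12 that fell were still called lower under both. In bulk cultures, fewer cells of a type and less RNA per cell cannot be told apart.

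**Figure D2:**
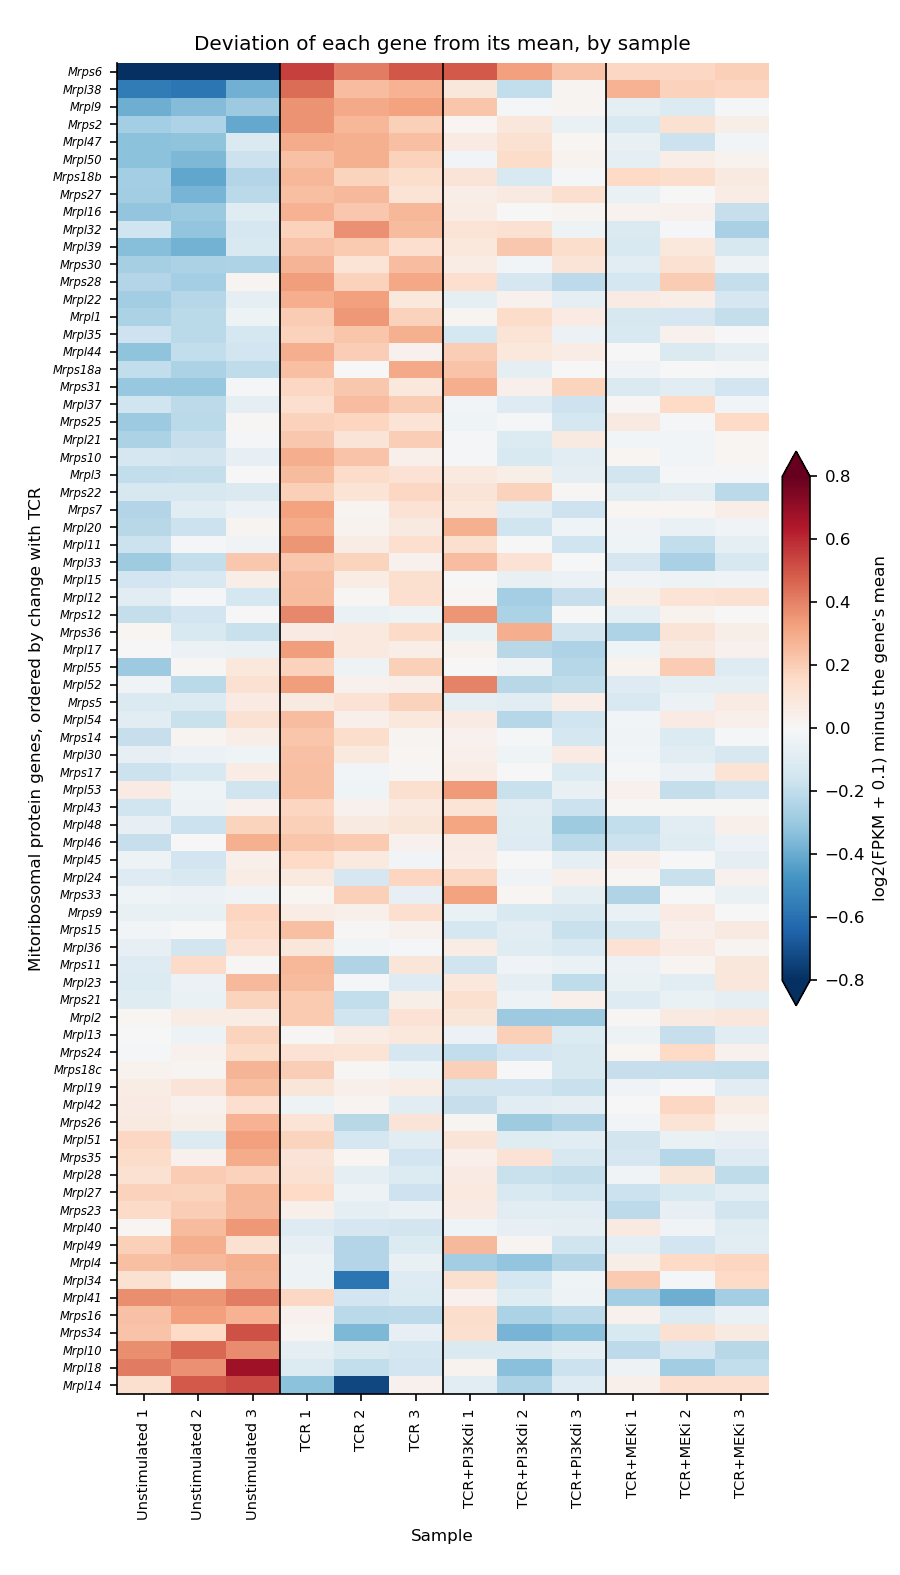
Deviation of each mitoribosomal protein gene from its own mean in log2(FPKM + 0.1), with the 76 genes as rows ordered by their change with TCR and the 12 samples as columns. Red is above and blue below the mean of the gene. Mrps6, Mrpl38 and Mrpl9 at the top are low in the 3 unstimulated samples, and Mrpl10, Mrpl18 and Mrpl14 at the bottom are high there.

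Which members rose? Mrps6, a small subunit protein with a bacterial counterpart (chromosome 16, 92058336 to 92112227), was at 29.6, 30 and 34.7 FPKM in unstimulated CTL, 91.98, 83.4 and 88.6 with TCR, 88.5, 78.95 and 73.6 with TCR+PI3Kdi and 70.6, 70.5 and 71.8 with TCR+MEKi. Every stimulated sample lay above every unstimulated one, and the rise with TCR was 2.80-fold (log2 change 1.49, SE 0.07, adjusted p = 1.34e-10). It was still called on the TPM scale, with a log2 change of 1.07. Of the exon bases of Mrps6, 10.4% lie in exons of Slc5a3 on the same strand and 19.9% in those of Gm49711, so that reads in the shared part are uncertain. Slc5a3 was at 0.86, 0.94 and 0.94 FPKM in unstimulated samples and 4.61, 5.57 and 5.54 with TCR, and its part in the value of Mrps6 was not tested.

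Mrpl38, a large subunit protein of the central protuberance that has no bacterial counterpart (chromosome 11, 116131817 to 116138868), was at 15.97, 15.8 and 18.04 FPKM in unstimulated CTL, 32.2, 27.99 and 28.6 with TCR, 25.1, 20.5 and 23.97 with TCR+PI3Kdi and 28.7, 26.8 and 26.6 with TCR+MEKi. The TCR samples lay above all others but 1, since TCR+MEKi replicate 1 reached into their range, and the rise with TCR (log2 change 0.83, SE 0.08, adjusted p = 4.39e-07) was also called on the TPM scale at 0.42. Mrpl9, a large subunit protein with a bacterial counterpart (chromosome 3, 94443154 to 94448708), was at 36.8, 38.04 and 39.6 FPKM in unstimulated CTL, 61.9, 59.8 and 60.5 with TCR, 56.3, 47.9 and 49.1 with TCR+PI3Kdi and 45.95, 44.9 and 47.9 with TCR+MEKi. Its groups did not overlap between unstimulated, TCR and either inhibitor (log2 change 0.67, SE 0.06, adjusted p = 1.68e-07), and on the TPM scale it was called at 0.26. These were the 3 members called higher under every scaling tried. Of the next largest rises, those of Mrps2 (0.58), Mrpl47 (0.53, at the polypeptide exit), Mrpl50 (0.52), Mrps18b (0.50) and Mrps27 (0.49) had SE of 0.07 and adjusted p between 4.91e-06 and 9.05e-06, and were not called on the TPM scale, where they were between 0.08 and 0.17.

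Which members fell? Mrpl14, a large subunit protein at the face between the subunits (chromosome 17, 45685722 to 45698495), was at 15.4, 19.8 and 20.4 FPKM in unstimulated CTL, 11.2, 8.47 and 14.4 with TCR, 13.3, 11.9 and 13.1 with TCR+PI3Kdi and 14.5, 15.5 and 15.4 with TCR+MEKi. Its lowest unstimulated sample stood above the highest TCR sample (log2 change -0.72, SE 0.15, adjusted p = 0.000514), and TCR replicate 2 was the lowest of the 12. Mrpl18, whose bacterial counterpart binds the 5S rRNA (chromosome 17, 12911345 to 12917787), was at 84.7, 81.8 and 102 FPKM in unstimulated CTL, 58.9, 55.5 and 57.1 with TCR, 64.8, 50.3 and 56.3 with TCR+PI3Kdi and 61.9, 52.3 and 55.3 with TCR+MEKi. Unstimulated samples stood apart and the 3 stimulated groups overlapped each other (log2 change -0.64, SE 0.10, adjusted p = 2.81e-05).

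Mrpl10, of the base of the ribosomal stalk (chromosome 11, 97041582 to 97049213), was at 47.1, 50.1 and 47.3 FPKM in unstimulated CTL, 34.5, 33.5 and 32.98 with TCR, 33.6, 33.6 and 34.7 with TCR+PI3Kdi and 31.5, 33.2 and 31.1 with TCR+MEKi, again with unstimulated samples above all 9 stimulated ones (log2 change -0.51, SE 0.05, adjusted p = 3.76e-07). The other falls were Mrps34 (-0.43), Mrps16 (-0.41), Mrpl41 (-0.41), Mrpl34 (-0.38) and Mrpl4 (-0.37). Leaving out 1 library ended 2 of the 16 calls named here. Mrpl34 had an adjusted p of 0.0576 without unstimulated replicate 3 and 0.0694 without TCR replicate 2, and Mrps34 had 0.0527 and 0.0524. Mrps34 shares 63.4% of its exon bases with Mapk8ip3 on the other strand and 37.0% with Nme3 on its own strand, and Mrpl10 shares 14.1%, Mrpl14 11.2% and Mrpl18 10.1% with a gene on the other strand, so these values are uncertain, and whether counting used strand is not stated. The same holds for the rises of Mrps18b, which shares 30.5% with Gm16279, Mrps27 (24.2% with 6430562O15Rik), Mrpl47 (13.9% with Ndufb5 and 10.2% with Actl6a) and Mrpl9 (5.8% with Oaz3), all on the other strand.

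Both directions were found in both subunits, where 33.6% of all genes were called higher and 34.9% lower. Of the large subunit 21 of 49 members rose and 9 fell with TCR, and of the small subunit 11 of 27 rose and 3 fell, with medians of 0.17 and 0.16. Of the 46 members with a bacterial counterpart 20 rose and 7 fell, and of the 30 without one 12 rose and 5 fell, with medians of 0.17 and 0.16. Within the large subunit, 3 of 6 proteins around the polypeptide exit (Mrpl22, Mrpl23, Mrpl24, Mrpl44, Mrpl45 and Mrpl47) rose and 0 fell. Of 5 proteins of the central protuberance (Mrpl18, Mrpl38, Mrpl40, Mrpl46 and Mrpl48), 1 rose and 2 fell, and of 5 proteins of the stalk and its base (Mrpl10, Mrpl11, Mrpl12, Mrpl53 and Mrpl54), 2 rose and 1 fell. With TPM scaling 0 of the exit proteins were called higher and 3 lower. The counts were 1 and 4 for the central protuberance, and 0 and 4 for the stalk and its base. Over all genes 15.3% were called higher and 60.9% lower on that scale.

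Summed over all members, FPKM was 3036, 3063 and 3393 in unstimulated samples and 3658, 3292 and 3351 with TCR. These ranges overlapped. With TCR+PI3Kdi the sums were 3439.7, 3049.9 and 3025, and with TCR+MEKi they were 3109.8, 3155 and 3138, so that replicate 1 was the highest of its group with TCR and with TCR+PI3Kdi. As a share of all FPKM the members made up 0.658% ± 0.0228 of unstimulated samples (SD, n = 3), 0.537% ± 0.0101 with TCR, 0.562% ± 0.0214 with TCR+PI3Kdi and 0.588% ± 0.00439 with TCR+MEKi. The share was lower in every TCR sample than in every unstimulated one, in contrast to the sums.

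The second comparison asked which of these mRNA depend on PI3K p110δ activity during stimulation. With TCR+PI3Kdi against TCR, 15 members fell and 0 rose, where 12.8% and 12.7% of all genes were called in these directions. The 15 are 19.7% of the members, and 65 of 76 changes were below 0. No member had an unadjusted limma p under 0.05 for a rise, where 18.8% of all genes did, and 30 (39.5%) had one for a fall, where 18.9% did. The median log2 change was -0.14, against 0.02 over all genes, and 76 of 76 stayed within 0.5 on the log2 scale. None passed 2-fold, where 0.499% of all genes were called and over 2-fold higher and 1.38% lower. With TPM scaling, where the median of all genes was 0.19, 9 members (11.8%) were called higher and 0 lower with a median of 0.04, against 34.6% and 5.04% of all genes. After quantile normalisation 0 were higher and 8 lower, a share of falls near that of all genes, 10.3% (11.8% were higher). Relative to the all-gene median the members were at -0.15, -0.15 and -0.10 under the 3 scalings. The count of falls was 6 without TCR replicate 1 and 6 without TCR+PI3Kdi replicate 3, and that of rises was 1 without TCR replicate 3 or TCR+PI3Kdi replicate 3. Of the large subunit 10 of 49 members fell, and of the small subunit 5 of 27.

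**Figure D3:**
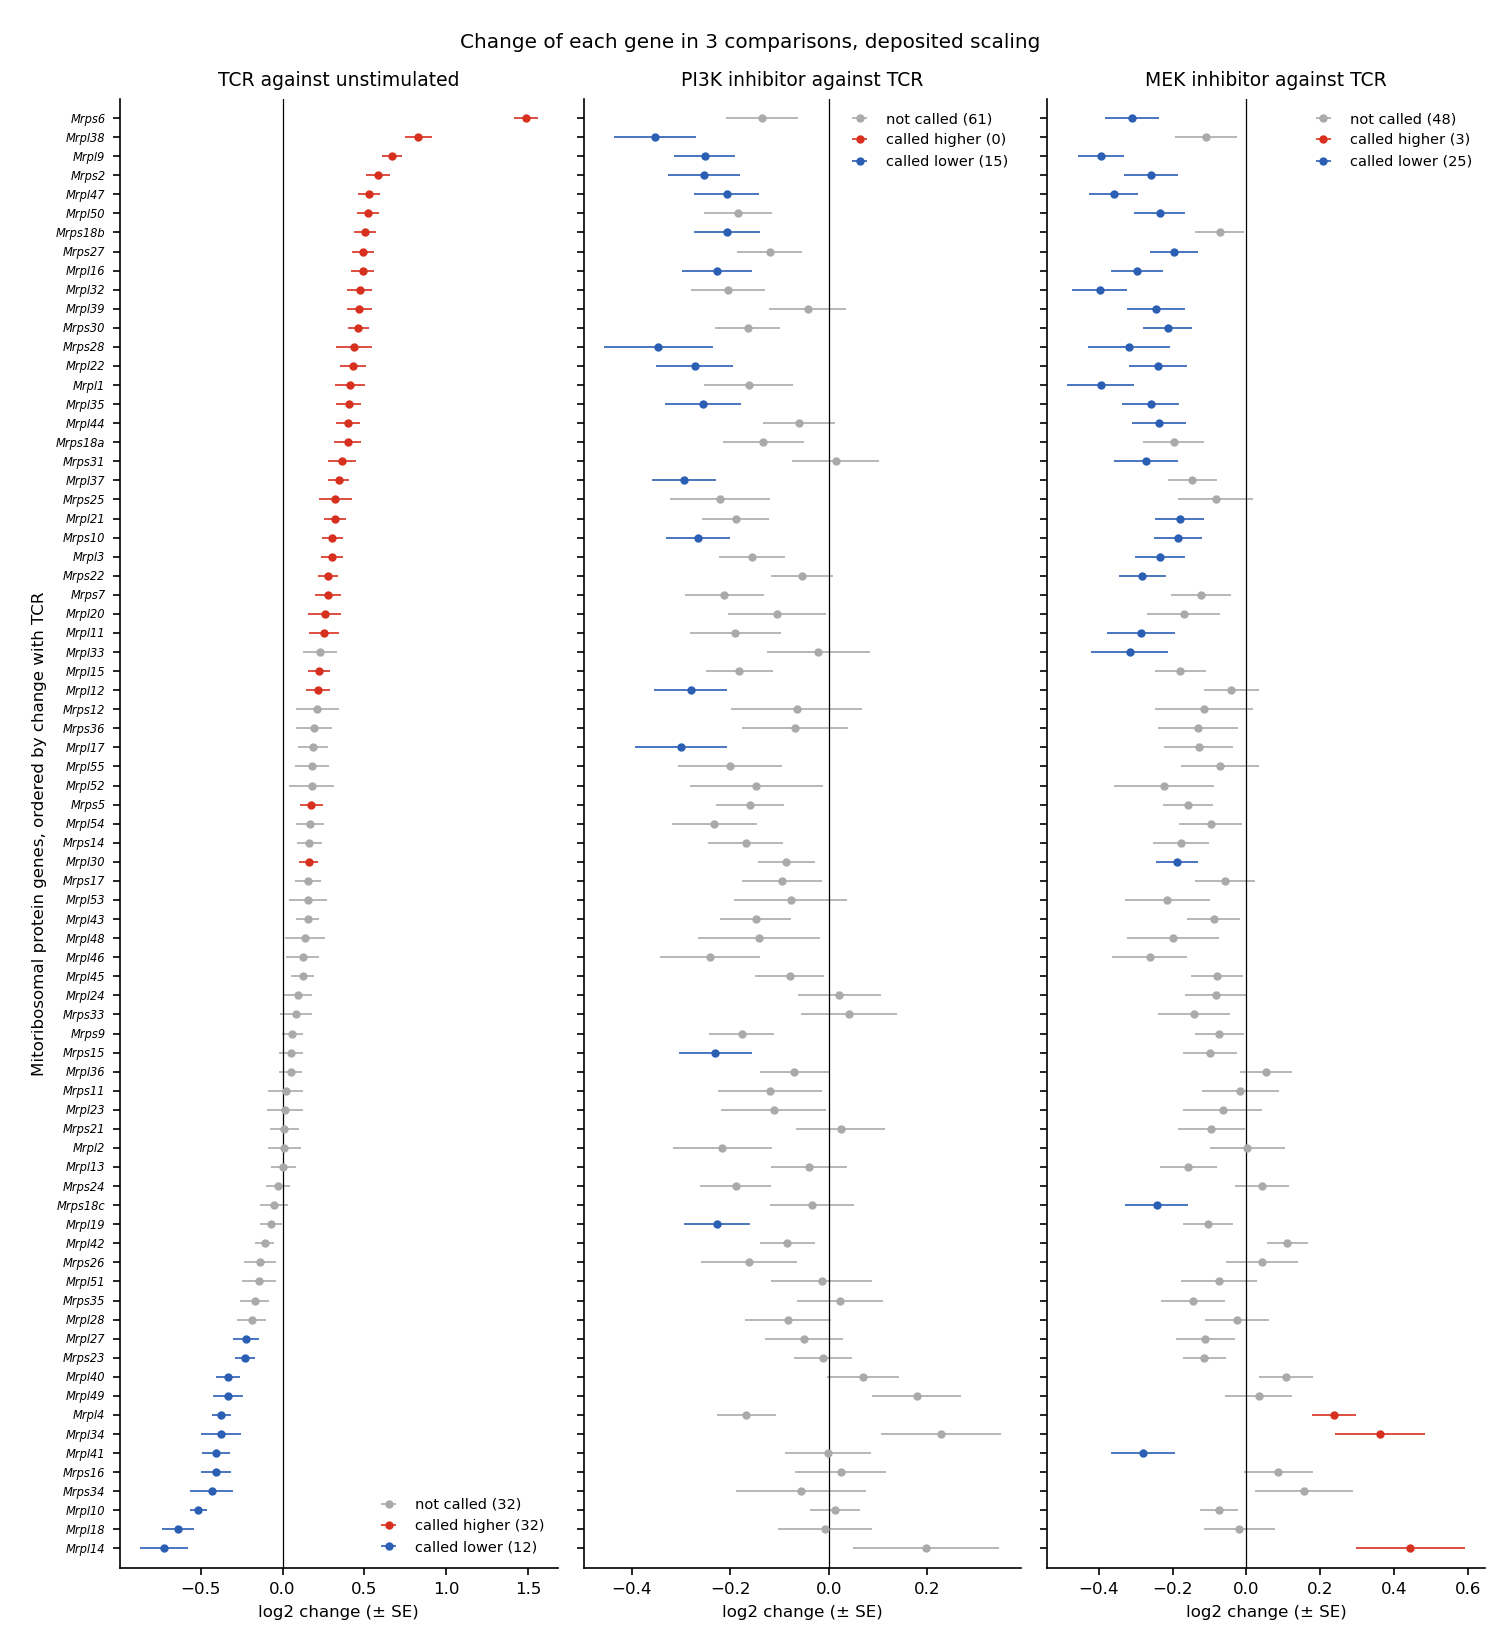
Log2 change of each mitoribosomal protein gene with its SE, with the deposited scaling, for TCR against unstimulated and for each inhibitor against TCR. Genes are ordered by their change with TCR, and red and blue points were called higher and lower at adjusted p under 0.05; the 3 comparisons share the TCR samples, and the called falls with each inhibitor lie mostly in the upper rows, on a horizontal axis that differs between panels.

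Mrpl38 fell most, from 32.2, 27.99 and 28.6 FPKM with TCR to 25.1, 20.5 and 23.97 with TCR+PI3Kdi (log2 change -0.35, SE 0.08, adjusted p = 0.00646). Mrpl37, another large subunit protein without a bacterial counterpart (chromosome 4, 107055874 to 107066866), was at 23.4, 22.7 and 24.97 FPKM in unstimulated CTL, 28.8, 31.2 and 30.3 with TCR, 25.8, 24.4 and 23.3 with TCR+PI3Kdi and 26.4, 29.3 and 25.8 with TCR+MEKi. All TCR+PI3Kdi samples lay below all TCR samples (log2 change -0.29, SE 0.07, adjusted p = 0.00468) and overlapped the unstimulated samples. Mrps10, a small subunit protein with a bacterial counterpart (chromosome 17, 47368887 to 47381418), was at 27.1, 26.8 and 28.4 FPKM in unstimulated CTL, 36.5, 34.9 and 30.6 with TCR, 29.4, 27.4 and 27.9 with TCR+PI3Kdi and 30.1, 29.3 and 30.01 with TCR+MEKi, with the same order of TCR and TCR+PI3Kdi (log2 change -0.26, SE 0.06, adjusted p = 0.00779).

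The calls of these 3 members held when any 1 library was left out. Those of the other 5 largest falls did not. Mrps28 (-0.35), Mrpl17 (-0.30), Mrpl12 (-0.28), Mrpl22 (-0.27) and Mrpl35 (-0.26) kept the call in 2 to 4 of the 6 fits that left out 1 library. Without TCR replicate 1 the adjusted p was 0.102 for Mrps28, 0.133 for Mrpl17, 0.0611 for Mrpl12 and 0.0721 for Mrpl22, and without TCR+PI3Kdi replicate 3 it was 0.132 for Mrps28, 0.113 for Mrpl17, 0.0651 for Mrpl22 and 0.0738 for Mrpl35. Without TCR+PI3Kdi replicate 2 it was 0.103 for Mrps28, 0.099 for Mrpl17 and 0.063 for Mrpl12, and without TCR+PI3Kdi replicate 1 it was 0.0516 for Mrpl22 and 0.0908 for Mrpl35. Without TCR replicate 2 it was 0.0737 for Mrpl22 and 0.0517 for Mrpl35, and without TCR replicate 3 it was 0.0855 for Mrps28 and 0.0884 for Mrpl35. Mrpl12, which forms the stalk that recruits translation factors, was at 144, 121 and 132 FPKM with TCR and 122, 99.8 and 106 with TCR+PI3Kdi, and these ranges overlapped. With TPM scaling all 15 falls kept a negative sign and none was called.

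MEK1/2, the kinases that activate ERK, were the subject of the next comparison. With TCR+MEKi against TCR, 25 members fell and 3 rose, where 18.2% and 18.9% of all genes were called. As shares of the members these were 32.9% and 3.95%. The median log2 change was -0.14, against 0.01 over all genes, and again 76 of 76 stayed within 0.5. None passed 2-fold, where 0.98% of all genes were called and over 2-fold higher and 2.51% lower. With TPM scaling, where the median of all genes was 0.26, the split was 24 higher (31.6%) and 0 lower with a median of 0.12, against 50.2% and 5.88% of all genes. After quantile normalisation it was 4 higher (5.26%) and 16 lower (21.1%), against 18.8% and 15.5%. Relative to the all-gene median the members were at -0.15, -0.14 and -0.12. The count of falls was 9 without TCR replicate 1, 12 without TCR+MEKi replicate 1 and 15 without TCR+MEKi replicate 3, and that of rises was 1 without TCR replicate 2, TCR+MEKi replicate 1 or TCR+MEKi replicate 3. Of the large subunit 17 of 49 members fell, and of the small subunit 8 of 27.

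Mrpl32, a large subunit protein with a bacterial counterpart (chromosome 13, 14610301 to 14613037), was at 50.4, 45.2 and 51.2 FPKM in unstimulated CTL, 63.9, 72.5 and 67.05 with TCR, 60.7, 61.1 and 54.7 with TCR+PI3Kdi and 51.9, 55.8 and 47 with TCR+MEKi. TCR samples were the highest and did not overlap those of any other group (log2 change -0.40, SE 0.07, adjusted p = 0.000859). Mrpl1, of the stalk at the tRNA exit (chromosome 5, 96209498 to 96266727), was at 4.72, 4.85 and 5.49 FPKM in unstimulated CTL, 6.51, 7.2 and 6.43 with TCR, 5.75, 6.27 and 5.93 with TCR+PI3Kdi and 5.17, 5.14 and 4.93 with TCR+MEKi, with TCR+MEKi below TCR+PI3Kdi and both below TCR (log2 change -0.39, SE 0.09, adjusted p = 0.00361). Falls of similar size were those of Mrpl9 (-0.39), Mrpl47 (-0.36), Mrpl33 (-0.32), Mrps6 (-0.31), Mrpl16 (-0.30) and Mrpl11 (-0.28). Of these 8 falls, 6 held when any 1 library was left out. The call of Mrpl33 was lost without TCR replicate 1 or 2 or TCR+MEKi replicate 1 or 2 (adjusted p between 0.0505 and 0.0973), and that of Mrpl11 without TCR replicate 1 (0.113) or TCR+MEKi replicate 2 (0.0955) or 3 (0.05, no longer under the threshold). On the TPM scale 12 of the 25 falls kept a negative sign and 0 were called.

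The 3 members that rose with TCR+MEKi were Mrpl14, Mrpl34 and Mrpl4, and each of them had fallen with TCR. Mrpl4, which lines the exit tunnel of the large subunit (chromosome 9, 21001252 to 21008839), was at 48.7, 49.3 and 50.1 FPKM in unstimulated CTL, 39.9, 34.99 and 39.5 with TCR, 33.95, 33.02 and 34.8 with TCR+PI3Kdi and 42.5, 45.9 and 46.3 with TCR+MEKi. Unstimulated samples were the highest, TCR+MEKi samples came next, and TCR and TCR+PI3Kdi samples lay below both (log2 change 0.24, SE 0.06, adjusted p = 0.00647), and the call held without any 1 library and under all 3 scalings. Mrpl34 was at 27.6, 25.5 and 30.5 FPKM in unstimulated samples, 24.6, 16.8 and 23.5 with TCR and 29.2, 25.1 and 28.3 with TCR+MEKi (log2 change 0.36, SE 0.12, adjusted p = 0.0311). Mrpl14, whose values are given above, rose as well (log2 change 0.44, SE 0.15, adjusted p = 0.0296). Without TCR replicate 2, which was low for both, Mrpl34 was at 0.19 (adjusted p = 0.142) and Mrpl14 at 0.25 (0.139). Mrpl34 also lost the call without TCR+MEKi replicate 1 (0.102) or 3 (0.0872), and Mrpl14 without TCR replicate 1 (0.0601) or TCR+MEKi replicate 1 (0.0517), 2 (0.0741) or 3 (0.0773).

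**Figure D4:**
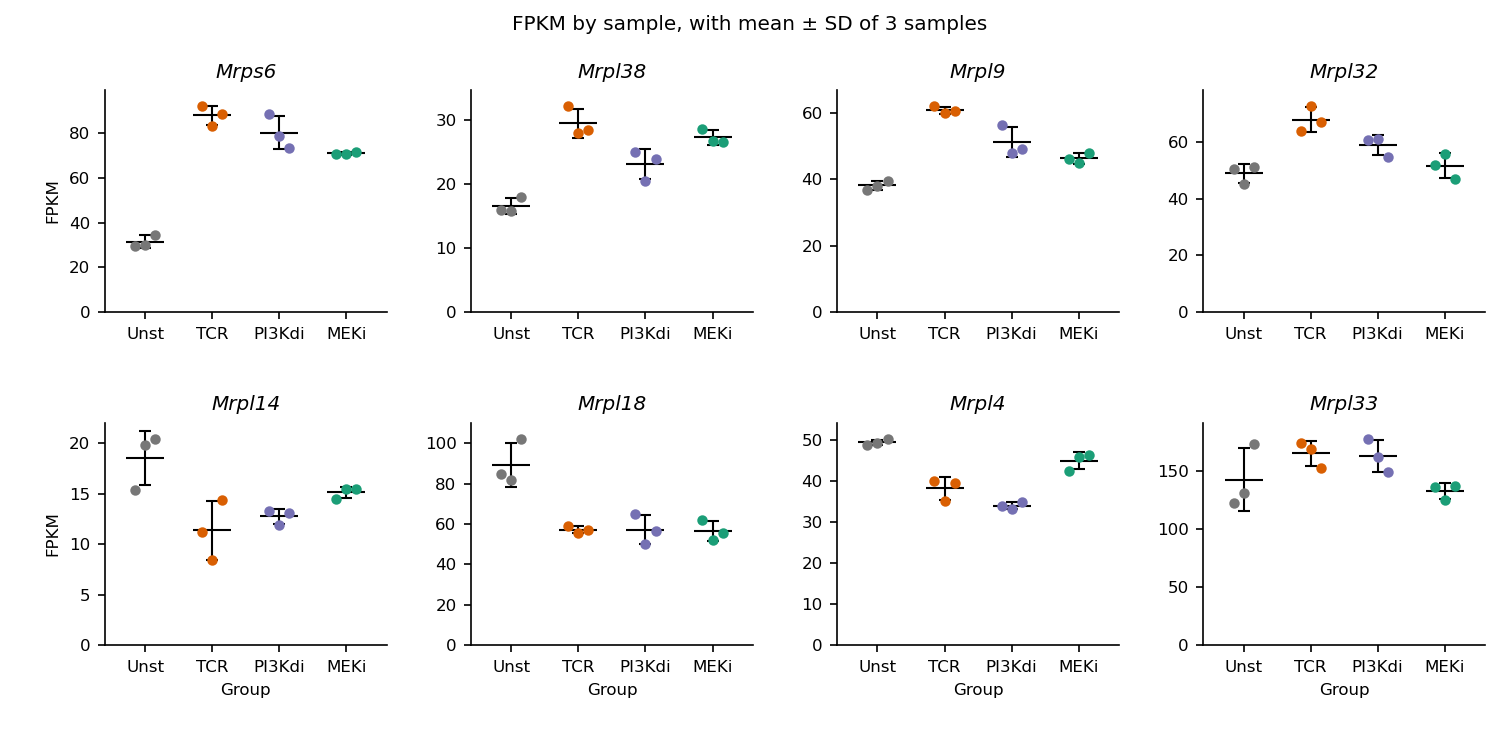
FPKM of 8 mitoribosomal protein genes in each sample (points, 3 per group) with mean and SD (bars), for unstimulated CTL, TCR, TCR+PI3Kdi and TCR+MEKi. Mrps6, Mrpl38, Mrpl9 and Mrpl32 are higher with TCR than in unstimulated samples, and Mrpl14, Mrpl18 and Mrpl4 are lower. The TCR+MEKi and TCR+PI3Kdi samples overlap in Mrpl32 and Mrpl18 and do not in the other genes shown, by a narrow margin in Mrpl9. Between these groups Mrpl38, Mrpl4 and Mrpl33 were called.

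How do the responses line up within the family? All comparisons with TCR share the TCR samples, so a sample that is high by chance there would appear both as a rise with TCR and as a fall with an inhibitor, and the following counts are descriptions. With both inhibitors 8 members were lower, which is 53.3% of the 15 lowered with TCR+PI3Kdi and 32.0% of the 25 lowered with TCR+MEKi. These were Mrpl9, Mrpl16, Mrpl22, Mrpl35, Mrpl47, Mrps2, Mrps10 and Mrps28, and all 8 were higher with TCR. Of the falls with TCR+PI3Kdi 12 of 15, and of those with TCR+MEKi 22 of 25, were of members that rose with TCR. The same overlaps over all genes are not given here, so these counts do not set the family apart. Another 6 members rose with TCR and were called with neither inhibitor, namely Mrpl15, Mrpl20, Mrps18a, Mrps25, Mrps5 and Mrps7. Mrpl41 fell with TCR and fell again with TCR+MEKi. Mrpl10, Mrpl18, Mrpl27, Mrpl40, Mrpl49, Mrps16, Mrps23 and Mrps34 fell with TCR and were called with neither inhibitor, and 25 members were called in no comparison.

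The inhibitors were given at 1 concentration each and act on different kinases, and their groups can be compared directly. Between TCR+MEKi and TCR+PI3Kdi, 5 members were higher and 4 lower, both smaller shares than the 14.5% and 14.4% of all genes called, and the median was -0.01. None differed by over 2-fold, where 1.39% of all genes were called and over 2-fold higher and 1.71% lower. The highest was Mrpl4 (log2 change 0.40, SE 0.06, adjusted p = 0.000138), with all TCR+MEKi samples above all TCR+PI3Kdi samples, and its call was the only one of the 9 that held when any 1 library was left out. Mrpl38 (0.24), Mrpl12 (0.24), Mrps24 (0.23) and Mrpl42 (0.19) were higher too, and Mrpl33 (-0.30), Mrps31 (-0.29), Mrpl41 (-0.28) and Mrps22 (-0.23) were lower. With the replicate number as a block the call of Mrpl33 was lost, and on the TPM scale the split was 15 higher (19.7%) and 0 lower, against 21.1% and 9.24% of all genes. The count of rises was 1 without TCR+MEKi replicate 2, 2 without TCR+PI3Kdi replicate 2, and 3 without TCR+PI3Kdi replicate 3 or TCR+MEKi replicate 3. The count of falls was 1 without TCR+PI3Kdi replicate 1 or TCR+MEKi replicate 3, and 2 without TCR+PI3Kdi replicate 2 or TCR+MEKi replicate 1. For the remaining 67 members no difference passed the test, which does not show that the inhibitors act alike; for Mrps6 the difference was -0.17 with a 95% interval of -0.33 to -0.02, and for Mrpl18 it was -0.01 with an interval of -0.22 to 0.19.

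Is this family different from related ones? With TCR, 76 of 79 cytosolic ribosomal protein genes rose and 0 fell with a median of 0.39, and 27 of 72 respiratory chain genes rose and 5 fell with a median of 0.14, beside 32 and 12 of the 76 members at 0.17. Over all genes 33.6% rose and 34.9% fell, with a median of -0.01. With TPM scaling these were 4 and 3 of the cytosolic genes at -0.03, 0 and 53 of the respiratory chain genes at -0.27, and 3 and 44 of the members at -0.25. On that scale 15.3% of all genes were called higher and 60.9% lower, and their median of -0.41 lay below that of each family. After quantile normalisation the medians were -0.06, -0.08 and 0.07, against -0.05 over all genes. With TCR+PI3Kdi, 5 cytosolic and 7 respiratory chain genes fell and 0 rose, with medians of -0.12 and -0.13, beside the members' -0.14. These falls are 6.33% and 9.72% of the families, both under the 12.8% of all genes called lower (12.7% were higher, and the median was 0.02). With TCR+MEKi 49 cytosolic and 19 respiratory chain genes fell and 0 rose, with medians of -0.24 and -0.13. These falls are 62.0% and 26.4%, against 18.2% of all genes (18.9% were higher, and the median was 0.01). After quantile normalisation the medians of the cytosolic genes were 0.05 with TCR+PI3Kdi and 0.03 with TCR+MEKi, and those of the respiratory chain genes 0.01 and -0.01, while the members stood at -0.08 and -0.09. The spread within the families also differed, since the middle 90% of cytosolic genes spanned 0.28 to 0.56 with TCR and that of the members -0.42 to 0.54. No test of a difference between families was made.

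**Figure D5:**
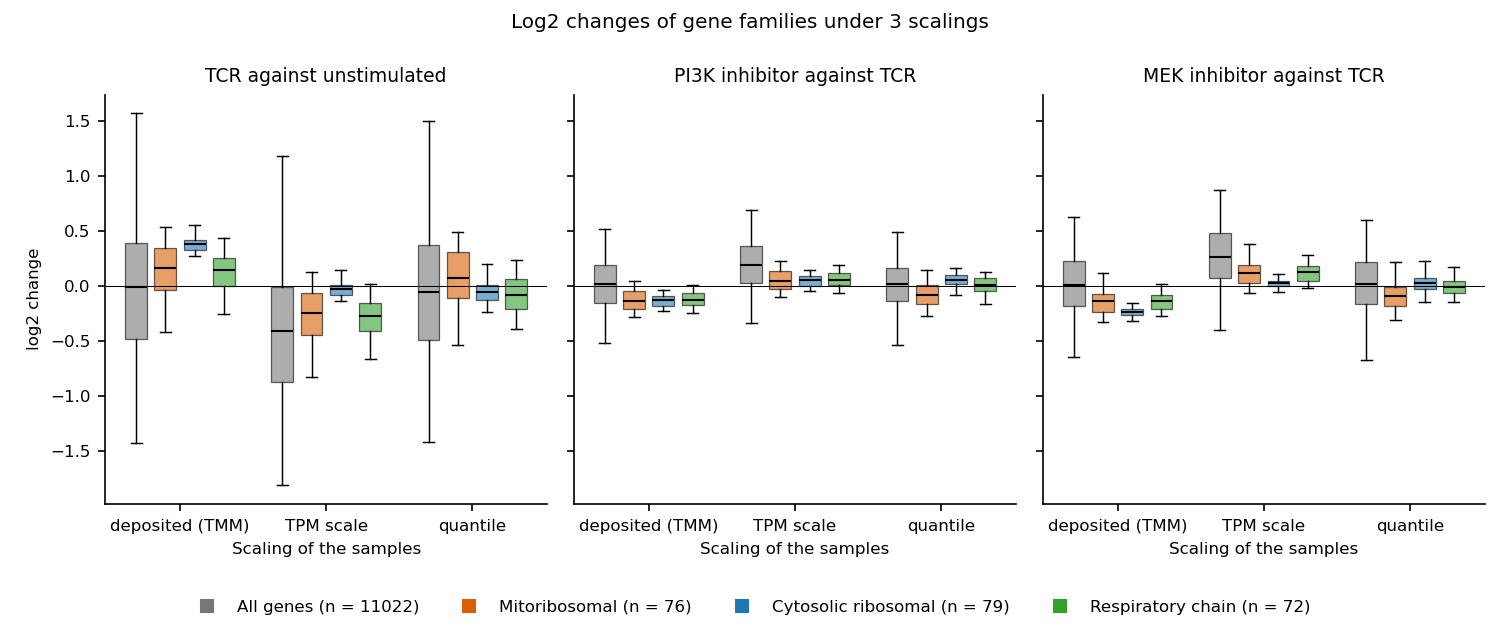
Log2 changes of all genes and of 3 families in 3 comparisons, under the deposited TMM scaling, the TPM scale and quantile normalisation. Boxes span the interquartile range of the genes with a line at the median, and whiskers run from the 5th to the 95th percentile; the medians of all families change sign between the deposited scaling and the TPM scale, while the members stay above the all-gene median with TCR and below it with each inhibitor.

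Genes that serve the mitochondrial ribosome were counted from lists, to be read against the 33.6% of all genes called higher and 34.9% called lower with TCR. Of 7 mitoribosomal proteins whose names fall outside the rule, 1 rose and 3 fell with TCR, and 0 were called with either inhibitor. Ptcd3 rose (0.48), Dap3 (-0.41), Mrp63 (-0.31) and Ict1 (-0.24) fell, and Gadd45gip1 (0.24), Chchd1 (0.08) and Aurkaip1 (-0.08) were not called. Without TCR replicate 2 the call of Mrp63 was lost (adjusted p = 0.0539). Of 27 genes for assembly of the particle and modification of its rRNA, 17 rose (63.0%) and 6 fell (22.2%) with TCR, with a median of 0.39. Fastkd2, an RNA-binding protein needed for the large subunit, rose from 8.9 ± 0.151 to 15.8 ± 0.951 FPKM (SD, n = 3) and fell with both inhibitors (-0.26 and -0.38). Nsun4, a methyltransferase for mitochondrial rRNA, rose from 1.497 ± 0.0929 to 2.98 ± 0.287 FPKM, while Mettl15 (-0.70) and Mpv17l2 (-0.66) fell. With TPM scaling 8 of the 27 were called higher and 9 lower with TCR (29.6% and 33.3%, median -0.02). Of the 7 proteins outside the rule 0 were higher and 5 lower (71.4%). Over all genes these shares were 15.3% and 60.9%, with a median of -0.41. On that scale 0 of the 27 were called lower with either inhibitor, so the falls of Fastkd2 were not called there.

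Of 18 translation factors 3 rose and 3 fell with TCR, 16.7% in each direction, against 33.6% and 34.9% of all genes. Tufm, the elongation factor that brings tRNA to the ribosome, rose (log2 change 0.41, SE 0.07, adjusted p = 7.47e-05), as did Mtfmt, which formylates the initiator tRNA (0.51), and Tsfm, the exchange factor of Tufm, fell (-0.47), as did Guf1 (-0.39). With TPM scaling Tufm was at -0.0049 (log2 change) and not called. Of 19 mitochondrial aminoacyl-tRNA synthetases and related genes 5 rose and 5 fell (26.3% each, also under the shares of all genes), with Yars2 (0.82) and Mars2 (0.53) rising most and Vars2 (-0.86) among those that fell. With TCR+PI3Kdi Yars2 fell (-0.34), and with TCR+MEKi Vars2 rose by 0.62 and Yars2 fell (-0.36). With the deposited scaling these lists, like the members, held genes moving in both directions. With TPM scaling 0 of the translation factors were called higher and 13 lower with TCR, and 1 and 10 of the synthetases. These falls are 72.2% and 52.6% of the lists, where 60.9% of all genes were lower and 15.3% higher on that scale.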

How the data were processed

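RNA-seq libraries (poly(A)-selected, stranded kit) came from 12 CTL samples in 4 groups of 3. The authors aligned reads to mm10 with STAR 2.4.2a, counted them per RefSeq gene with Subread 1.5.0, dropped genes with low counts, scaled by TMM and deposited FPKM computed in edgeR from exon lengths. Whether counting used strand is not given in the sources used here. No value column was left without a sample (0).

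From these FPKM values, log2(FPKM + 0.1) of all 11022 genes was fitted with limma 3.58.1 (R 4.3.3), with 1 mean per group, all 12 samples sharing the spread, an intensity trend, no block, two-sided tests and Benjamini-Hochberg adjustment over all genes. A gene was called at adjusted p under 0.05. Fold changes on this scale understate changes of low genes. The code was tested on simulated data. The study's methods add a 2-fold threshold, which is an alternative here. Other alternatives were pseudocounts of 1 and 0.01, a mean FPKM of at least 1, a common sum of FPKM (TPM scale), quantile normalisation, a replicate block, only the groups compared, no trend, and leaving out each replicate. Values, sums and sequences were handled in Python 3.11.15 with pandas 2.3.3 and NumPy 2.4.6.

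Counts were not used here. Effective depth was inferred from the spacing of the lowest FPKM levels over a limited search range set with an earlier estimate known, and it is approximate because many low values did not lie near whole reads (49.8% were within 0.15 of one in unstimulated replicate 2, for example). It puts 3 reads in a gene of 1 kb at 0.227 to 0.385 FPKM, which covers counting error only. The exon lengths used for depth and read numbers came from GENCODE and need not equal those behind the FPKM.

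In each comparison up to 8 called members were named in each direction by size of change, if 3 of 3 same-numbered pairs moved the same way, along with any member past 2-fold and the 5 highest and 5 lowest in mean FPKM. From each pathway list the 2 called genes changing most in each direction with TCR and the 1 for each inhibitor could be named, with all mitoribosomal proteins outside the naming rule. Other members named for their level, overlap or pattern, and other listed genes, were chosen after their values were seen. The members and all gene lists were chosen with earlier results of these data known. Per the study's methods 3 mice gave the 3 biological replicates, and that equal numbers mark the same mouse in every group is not spelled out. Deviations from group means correlated between equal numbers at 0.105, 0.153 and 0.004 for TCR and unstimulated, 0.451, 0.376 and 0.239 for TCR+PI3Kdi and TCR, 0.153, 0.122 and 0.182 for TCR+MEKi and TCR, and 0.137, 0.147 and 0.149 between the inhibitors, over 9899 genes. Every pair was over 0.1 in the last 3 comparisons and not in the first. The main fit used no pairing in any comparison, while the naming rule on same-numbered pairs was applied in every one. With the replicate number as a block, 19 members fell with TCR+PI3Kdi and 28 with TCR+MEKi. Exon overlaps were taken from GENCODE on the same build.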

Additional observations from a re-analysis of the deposited data

Results flagged for a closer look

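With TCR+MEKi against TCR+PI3Kdi, a direct test of whether the inhibitors had unequal effects, 9 members differed at a limma adjusted p under 0.05 (5 higher and 4 lower of 76, smaller shares than the 14.5% and 14.4% of all genes). Mrpl4 differed most (log2 change 0.40, higher in 3 of 3 same-numbered pairs). The next were Mrpl38 (0.24), Mrpl12 (0.24), Mrps24 (0.23) and Mrpl42 (0.19), with TCR+MEKi the higher group in 3 of 3 pairs. The lower members were Mrpl33 (-0.30), Mrps31 (-0.29), Mrpl41 (-0.28) and Mrps22 (-0.23), each lower in 3 of 3 pairs. In all 9 the groups did not overlap, so any pairing would give 3 of 3 and the pairs add no support. Members were also named only if 3 of 3 pairs agreed. Groups did not overlap in 20.9% (higher) and 22.7% (lower) of all genes. Of the 9, Mrpl4 was the 1 whose call held whichever library was left out. Without TCR+PI3Kdi replicate 2, within the groups compared the sample lowest for Mrpl38 and Mrpl12, these members were at 0.16 (adjusted p = 0.184) and 0.18 (0.116). Of the exon bases of Mrps24, 15.4% lie in exons of Urgcp on the same strand.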

How the results depend on the processing

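Pseudocounts, the filter on low values and the use of only the groups compared moved none of the 12 counts and medians of members by over 1.5 times or over the replicate spread, nor did the replicate block, under which the call of Mrpl33 between the inhibitors was lost (-0.30). Scaling mattered most. On the TPM scale members called higher and lower were 3 and 44 with TCR (median -0.25), 9 and 0 with TCR+PI3Kdi (median 0.0438), 24 and 0 with TCR+MEKi (median 0.12), and 15 and 0 between the inhibitors (median 0.069), with all 4 medians turned in sign. The shares of all genes called higher and lower were 15.3% and 60.9% with TCR and 34.6% and 5.04% with TCR+PI3Kdi. With TCR+MEKi they were 50.2% and 5.88%, and between the inhibitors 21.1% and 9.24%. By construction this scale removes the rise in the sum of FPKM. After quantile normalisation 8 members were lower with TCR+PI3Kdi (median -0.0798) and 16 with TCR+MEKi, where 10.3% and 15.5% of all genes were lower. Without the intensity trend 1 member was higher with TCR+MEKi and 2 between the inhibitors. With a 2-fold threshold 1 member was higher with TCR, 0 were lower, and 0 were called in any other comparison. Leaving out 1 replicate gave 26 to 37 members higher and 9 to 14 lower with TCR (median 0.10 to 0.22), 0 to 1 and 6 to 20 with TCR+PI3Kdi (median -0.19 to -0.10), 1 to 3 and 9 to 23 with TCR+MEKi (median -0.16 to -0.09), and 1 to 6 and 1 to 6 between the inhibitors (median -0.04 to 0.03). The shares of all genes without the trend, or with 1 replicate left out, are not given here. Among single genes with TCR, Tufm (-0.0049), Chchd1 (-0.33) and Gadd45gip1 (-0.17) turned on the TPM scale, Chchd1 (-0.0276) after quantile normalisation, and Aurkaip1 (-0.1977 to 0.0028 when 1 replicate was left out, above 0 without TCR replicate 2). The cause of the other changes was not tested.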

Other observations

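Genes that act upstream of the mitochondrial ribosome were also in the table. Of 21 genes for mitochondrial DNA and RNA, 15 rose and 1 fell with TCR (71.4% and 4.76%, against 33.6% and 34.9% of all genes, with a median log2 change of 0.36 against -0.01), and with TCR+MEKi 9 fell and 2 rose (42.9% and 9.52%, against 18.2% and 18.9%, with a median of -0.17 against 0.01). Fastkd3, an RNA-binding protein of the FASTK family, rose from 9.73 ± 0.506 to 21.2 ± 2.27 FPKM with TCR (SD, n = 3) and was at 21.8 ± 1.16 with TCR+PI3Kdi and 13.5 ± 1.42 with TCR+MEKi (log2 change against TCR -0.64). Elac2, which trims the ends of mitochondrial tRNA precursors, rose (0.88) and fell with both inhibitors (-0.31 and -0.21). Polg, the catalytic subunit of the mitochondrial DNA polymerase, was the gene that fell, from 9.26 ± 0.384 to 4.09 ± 0.293 FPKM, and it rose with both inhibitors (0.32 and 0.30). These counts depend on the scaling. With TPM scaling 4 of the 21 were called higher and 6 lower with TCR (19.0% and 28.6%, against 15.3% and 60.9% of all genes). With TCR+MEKi 6 were higher and 1 lower on that scale (28.6% and 4.76%, against 50.2% and 5.88%).

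Of 9 nuclear regulators of mitochondrial genes, 3 rose and 2 fell with TCR (33.3% and 22.2%, against 33.6% and 34.9% of all genes). With TCR+PI3Kdi 4 fell (44.4%, against 12.8%) and 1 rose, and the 4 were Myc, Pprc1, Ppargc1b (-0.59) and Esrra (-0.36). Myc rose from 125 ± 1.92 to 290.4 ± 20.9 FPKM, was at 223 ± 12.99 with TCR+PI3Kdi (log2 change against TCR -0.38) and at 290.3 ± 13.8 with TCR+MEKi (0.00). Pprc1, a coactivator related to PGC-1, rose (0.52) and fell with TCR+PI3Kdi (-0.22), and had a log2 change of 0.04 with TCR+MEKi. Gabpb2 fell (-0.46) and rose with both inhibitors (0.34 and 0.30). With TPM scaling 1 of the 9 was called higher and 6 lower with TCR (11.1% and 66.7%, against 15.3% and 60.9% of all genes). With TCR+PI3Kdi 2 were higher and 1 lower on that scale (22.2% and 11.1%, against 34.6% and 5.04%), so most of the 4 falls were not called there.

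Mrpl46 and Mrps11 are neighbours on chromosome 7 whose annotated exons share 173 bases on opposite strands. Mrpl46 was at 30.03, 34.1 and 41.5 FPKM in unstimulated CTL, 39.8, 39.5 and 34.98 with TCR, 35.8, 31.7 and 29.4 with TCR+PI3Kdi and 30.3, 31.9 and 32.96 with TCR+MEKi, and Mrps11 was at 19.2, 22.9 and 20.7 FPKM in unstimulated CTL, 24.8, 17.4 and 22 with TCR, 18.4, 20.2 and 19.8 with TCR+PI3Kdi and 19.9, 20.9 and 21.9 with TCR+MEKi. Neither was called in any comparison, and the values of all groups overlapped for Mrps11.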
